A study of Mus musculus with 4 samples.

Results

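The 39 Hox genes are the protein-coding genes of GENCODE M21 named Hoxa, Hoxb, Hoxc or Hoxd followed by a number, out of 21951 protein-coding genes in that annotation. Hoxa has 11 genes on chromosome 6, Hoxb 10 on chromosome 11, Hoxc 9 on chromosome 15 and Hoxd 9 on chromosome 2, and paralog numbers run from 1 to 13. A gene was counted as open in a library where a peak overlapped the 1000 bp on either side of any of its annotated transcription starts. All peaks across each cluster and 50 kb on either side were taken as well, which gave 43 of the 122166 regions that remained after the peaks of all libraries were merged. The assay was ATAC-seq, a transposase-based map of open DNA, on brain tumors that mG7080 cells formed in C57BL/6 mice, either WT or Esm1 KO, with 2 tumors per group and 1 peak list per tumor. mG7080 is a single murine glioblastoma line, grown as spheres, from tumors with deletions of tumor suppressor genes, so both groups share these deletions and the groups differ in the host. Esm1 encodes Endocan, a proteoglycan that endothelial cells secrete. The study's methods give hosts of 6 to 8 weeks of age, while its reporting summary gives an older range. Under its general protocol mice were killed at symptoms rather than at a set time, and the collection time of these tumors is not stated. The comparison addresses whether chromatin of the tumor differs when the host lacks Endocan. The Esm1 promoter itself had no peak in any library, so that locus could not check the labels.

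Hox genes encode homeodomain transcription factors that give cells along the head-to-tail axis their regional identity. Within a cluster, genes of low paralog number are used toward the hindbrain and those of high number toward the tail, and retinoic acid, Cdx and other axial signals open the clusters from the low-numbered end. In forebrain cells the clusters are normally shut under Polycomb repression, with CTCF sites that divide them into domains, and HOX genes have been reported as active in a part of human glioblastomas.

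The 2 WT libraries, replicate 1 and then 2, held 63000 and 100088 peaks, and the 2 KO libraries in the same manner 82975 and 85418. Values given for 4 libraries follow this order. The height of a peak is the pileup at its summit, a whole number recovered from the deposited values, and the sources used here do not say if the caller stacked reads, fragments or shifted ends. A scaled height is the height relative to the genome background, which was, per library, 4.41, 6.85, 6.03 and 6.71. The lowest peak called was 2.94, 2.34, 2.49 and 2.38 times that background, so WT replicate 1 was the shallowest library with the highest floor. Markers of glioma and oligodendrocyte precursor cells were open at 5, 5, 4 and 5 of 6 promoters and neural stem and astrocyte markers at 5 of 6 in each library, while lymphocyte markers were open at 0 of 4 in each. Of all protein-coding genes 63.9%, 66.2%, 65.1% and 66.9% had a promoter peak. Within these lists KO replicate 2 had the highest scaled height at several promoters: it was 4.08, 5.26, 6.31 and 10.3 at Gfap, an astrocyte filament gene, 9.29, 7.16, 8.3 and 12.4 at Sox2, 7.25, 9.49, 9.63 and 11.8 at Sox9 and 7.02, 3.36, 4.32 and 10.6 at Olig2, while at Pdgfra, at 9.74, 6.86, 8.13 and 9.39, WT replicate 1 was the highest. None of the markers of either list passed limma, a linear model of log2 height, as 0.0146% of all promoters tested did. The list medians were 0.42 (KO minus WT, neural stem and astrocyte) and 0.154 (precursor). The part of these differences in the Hox results below was not tested. Mature oligodendrocyte markers were open at 4, 1, 1 and 1 of 5 promoters, with Mag, Mobp and Mog open in WT replicate 1 alone (0.173% of all genes). A bulk library does not tell a site open in few cells from one that is a little open in all cells.

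Hox promoters were mostly closed in 3 of the tumors, and KO replicate 2 stood apart from them and from the other tumor of its group. A promoter peak was found at 2, 1, 1 and 18 of the 39 Hox genes, against 63.9%, 66.2%, 65.1% and 66.9% of all protein-coding genes. In all 4 libraries 1 Hox gene, Hoxa7, was open, against 62.3% of all genes, and 21 Hox genes had no promoter peak in any library, against 31% of all genes. In KO replicate 2 alone 16 Hox genes were open, against 1.64% of all genes, which makes them 16 of the 361 genes open in that library alone. In WT replicate 1, WT replicate 2 and KO replicate 1 the count of Hox genes open in that library alone was 0, against 0.173%, 0.825% and 0.196% of all genes. No Hox gene had a WT-only peak, meaning that both WT tumors and no KO tumor had it (0.146% of all genes), and none had a KO-only peak, the reverse (0.282%). The 16 openings were thus found in 1 tumor of the KO group and not in the other.

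**Figure D1:**
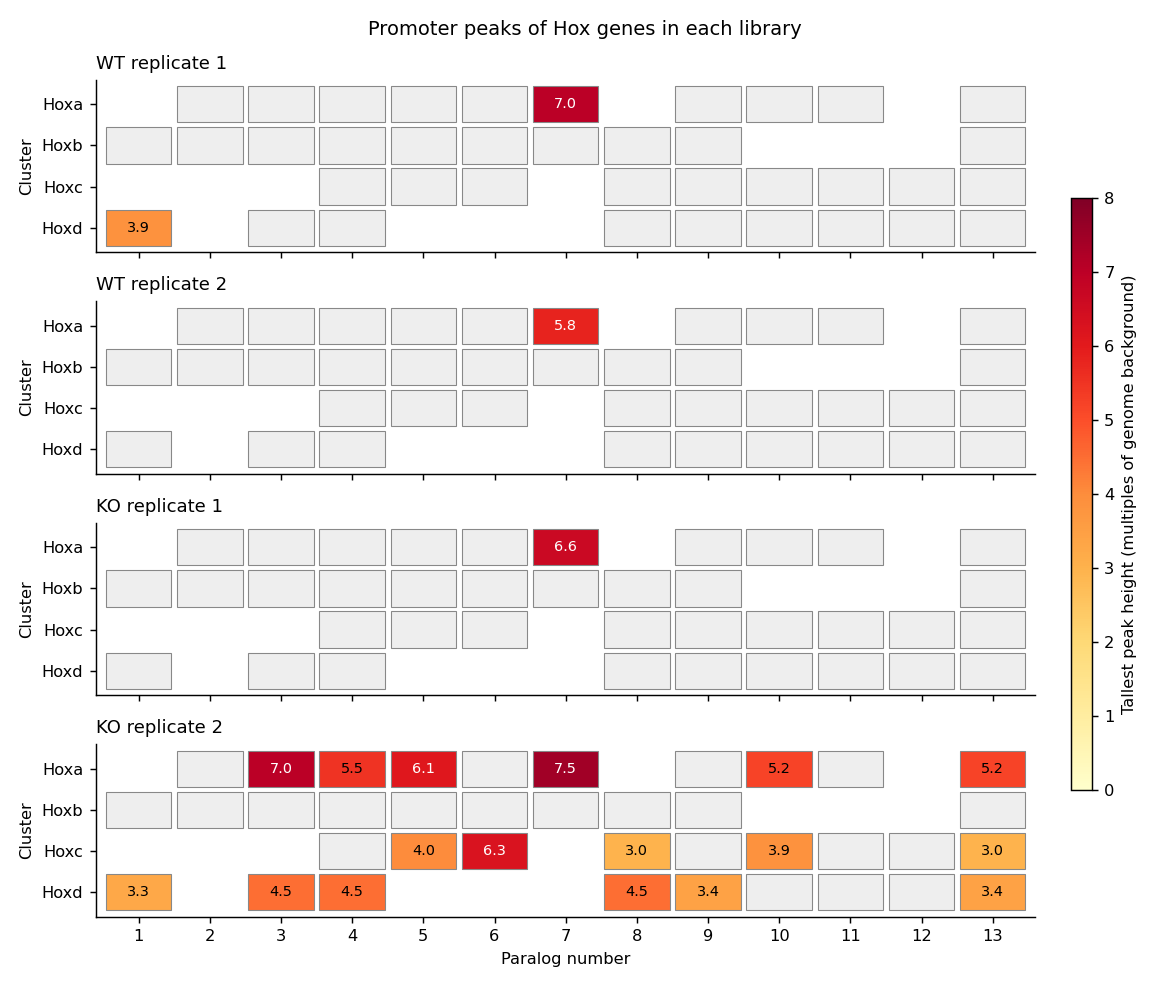
Scaled height of the tallest promoter peak (colour and printed value, in multiples of the genome background of the library) of the Hox genes, with 1 panel per library, clusters in rows and paralog numbers in columns. Grey boxes are genes with no peak, and blank places have no gene or one that is not drawn. Hoxa7 is coloured in all 4 panels, and KO replicate 2 has coloured genes in Hoxa, Hoxc and Hoxd and none in Hoxb.

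To show what the opened and the closed promoters look like, the 150 bases before a transcription start are given for 1 opened and 1 closed gene of Hoxa, Hoxc and Hoxd each and for Hoxa7, in the RefSeq GRCm38.p6 genome with CG dinucleotides in capitals. In each cluster these are the starts with the highest CpG ratio among those with no UTR bases in the window. Capitals are dense in the opened Hoxa5 and Hoxd8 windows, which hold 21 CG each, and sparser in the closed windows, which hold 6 to 8. The opened Hoxc13 window holds 8, as many as the closed Hoxd11 window, so the count does not separate opened from closed windows.
Hoxa5 (KO replicate 2 alone), chr6:52204588-52204737, minus strand: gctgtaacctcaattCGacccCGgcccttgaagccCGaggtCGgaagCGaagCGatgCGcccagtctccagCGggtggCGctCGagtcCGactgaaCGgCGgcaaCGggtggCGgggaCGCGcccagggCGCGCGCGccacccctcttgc
Hoxa11 (no peak), chr6:52245811-52245960, minus strand: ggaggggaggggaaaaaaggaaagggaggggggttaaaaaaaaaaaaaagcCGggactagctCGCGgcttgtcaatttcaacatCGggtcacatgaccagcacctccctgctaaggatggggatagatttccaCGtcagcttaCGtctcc
Hoxc13 (KO replicate 2 alone), chr15:102920953-102921102, plus strand: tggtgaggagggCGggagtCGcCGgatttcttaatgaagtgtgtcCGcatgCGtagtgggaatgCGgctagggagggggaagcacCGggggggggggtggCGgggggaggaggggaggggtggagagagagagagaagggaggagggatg
Hoxc12 (no peak), chr15:102936607-102936756, plus strand: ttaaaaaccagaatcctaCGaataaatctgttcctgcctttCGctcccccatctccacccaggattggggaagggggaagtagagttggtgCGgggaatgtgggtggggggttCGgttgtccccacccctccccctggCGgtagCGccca
Hoxd8 (KO replicate 2 alone), chr2:74704755-74704904, plus strand: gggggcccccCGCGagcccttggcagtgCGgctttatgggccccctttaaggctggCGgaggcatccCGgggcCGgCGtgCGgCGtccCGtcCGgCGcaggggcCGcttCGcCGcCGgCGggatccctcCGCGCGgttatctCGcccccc
Hoxd11 (no peak), chr2:74682173-74682322, plus strand: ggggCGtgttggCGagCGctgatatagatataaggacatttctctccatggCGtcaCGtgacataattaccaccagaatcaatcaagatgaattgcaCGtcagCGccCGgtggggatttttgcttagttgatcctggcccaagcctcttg
Hoxa7 upstream start (all libraries), chr6:52221855-52222004, minus strand: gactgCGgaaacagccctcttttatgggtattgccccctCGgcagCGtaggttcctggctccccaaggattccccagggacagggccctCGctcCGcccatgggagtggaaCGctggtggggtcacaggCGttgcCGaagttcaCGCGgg

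Hoxa7, a mid-cluster gene of trunk identity, had promoter peak heights of 31 and 40 in the WT tumors and 40 and 50 in the KO tumors. Scaled to background these were 7.02, 5.84, 6.64 and 7.45, so the groups overlapped on that scale. The fold over the local background, estimated around the peak, was 5.84 and 5.05 in WT and 4.83 and 3.39 in KO. On that measure both WT tumors were higher and KO replicate 2 was the lowest. Its local background there was 2.09 times the genome background, against 1.01, 1.04 and 1.24 in the other libraries. The peak spanned chr6:52221378-52222117 with its summit 87 bp from the start of a transcript that GENCODE leaves out of its basic set and in UTR sequence of that transcript. The principal Hoxa7 start, 4.26 kb from the summit at position 52217505, had no peak in any library. By limma on log2 height, over 13675 promoters open in all libraries, Hoxa7 was higher in KO by 0.24 on the log2 scale (SE 0.23, adjusted p = 0.998, unadjusted p = 0.318), against a median of -0.005 over all promoters tested. Of all these promoters 0.0146% passed an adjusted p of 0.05 in either direction, 2 with KO higher and 0 with KO lower (3 and 7 with heights centred on the genome background), while 522 had an unadjusted p under 0.05. Hoxa7 was the single Hox promoter that could enter, and 0 of 1 passed.

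Hoxd1, at the low-numbered end of its cluster, was open in WT replicate 1 with a height of 17 and in KO replicate 2 with a height of 22, which are 3.85 and 3.28 times background. It was the other Hox gene with a promoter peak outside KO replicate 2. The lowest height called in WT replicate 1 was 13, so the Hoxd1 peak there was close to the limit of detection.

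In the Hoxa cluster of KO replicate 2 promoter peaks stood at 7 of 11 genes along its whole length. Hoxa3, of pharyngeal arch and neck identity, reached 47, with 3 separate promoter peaks at its several starts, and had no promoter peak in the other libraries. Of these 3 peaks 1 belonged to Hoxa region 9, in an intron of Hoxa3. WT replicate 2 and KO replicate 1 also had a peak in that region, which did not reach the promoter of 1000 bp. With promoters of 2500 bp those peaks counted, and Hoxa3 was no longer open in KO replicate 2 alone. Hoxa4 and Hoxa5, of neck and upper trunk identity, reached 37 and 41, and Hoxa10 and Hoxa13, of lower trunk and limb identity, reached 35 each. These heights came to 5.21 to 7 times background, and Hoxa7 in the same library to 7.45. Hoxa2, Hoxa6, Hoxa9 and Hoxa11 had no promoter peak in any library, so closed genes lay between opened ones.

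In the Hoxc cluster of KO replicate 2 promoter peaks stood at 5 of 9 genes, and all 5 were closed in the other 3 libraries. Hoxc6, of upper trunk identity, was the tallest at 42, with its summit 1088 bp from the nearest start and so outside the promoter. The peak itself reached into the promoters of the Hoxc6 starts on either side of it. Hoxc5 and Hoxc10 had heights of 27 and 26, and they share 1 of their peaks, since an annotated Hoxc5 start lies beside Hoxc10. Hoxc8 and Hoxc13 had heights of 20 each, 2.98 times background and the lowest among the opened Hox promoters. Hoxc4, Hoxc9, Hoxc11 and Hoxc12 had no promoter peak in any library.

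In the Hoxd cluster of KO replicate 2 promoter peaks stood at 6 of 9 genes. Hoxd3, Hoxd4 and Hoxd8 had heights of 30 each, with the same peak counted for Hoxd3 and Hoxd4, and Hoxd9 and Hoxd13, the latter a gene of digit and genital development, had heights of 23 each. Apart from Hoxd1 these were closed in the other 3 libraries. Hoxd10, Hoxd11 and Hoxd12 had no promoter peak in any library. Scaled heights in this cluster ran from 3.28 to 4.47, all below the lowest of the opened Hoxa promoters, 5.21.

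The Hoxb cluster was the exception. All 10 Hoxb genes, which mark hindbrain and spinal cord among other tissues, had no promoter peak in any of the 4 libraries. With promoters widened to 2500 bp, 3 of them, Hoxb3, Hoxb7 and Hoxb8, gained a peak, in KO replicate 2 alone.

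By paralog number, the genes opened in KO replicate 2 followed no single end of the clusters. Of the 4 genes numbered 13, 3 were open (Hoxa13, Hoxc13 and Hoxd13), and of the 3 genes numbered 3, 2 were open (Hoxa3 and Hoxd3). Genes numbered 2, 11 and 12 were closed in every library. Of the 4 genes numbered 9, 1 was open (Hoxd9), and the genes numbered 4 were open at 2 of 4 (Hoxa4 and Hoxd4).

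The opened Hox promoters of KO replicate 2 were low next to the usual open promoter of that library. Their scaled heights ran from 2.98 to 7.45 with a median of 4.47 (18 genes), against a median of 4.02 over the 361 genes open in KO replicate 2 alone and 13 over the 13675 genes open in all libraries. The tallest, Hoxa7, stood at the 18.3 percentile of all promoters with a peak in that library, and Hoxa3 at the 16.5 percentile. Every one of these scaled heights was above the lowest scaled height called in each of the other libraries. Hoxc8 and Hoxc13, at 2.98, lay close to that lowest value in WT replicate 1, 2.94. The lowest value holds for a library as a whole, and a peak must be taller where the local background is raised. It therefore cannot tell whether peaks of these heights would have been called at the Hox promoters of the other libraries. With a stricter threshold of 5 on the −log10 q, 12 of the 16 Hox genes were still called in KO replicate 2 alone, and the 4 that left were Hoxc8, Hoxc13, Hoxd9 and Hoxd13.

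Across the clusters themselves, without flanks, the libraries held 5, 4, 5 and 31 peaks. This is 1.02, 0.813, 1.02 and 6.3 peaks per 100 kb, against 2.31, 3.67, 3.04 and 3.13 per 100 kb over the genome. Peaks thus lay below the genome-wide density in 3 libraries and above it in KO replicate 2. They covered 0.393%, 0.315%, 0.315% and 3.88% of the clusters. The density in KO replicate 2 was 11.4 per 100 kb in Hoxa, 8.26 in Hoxd, 6.91 in Hoxc and 1.72 in Hoxb, so Hoxb was the cluster below the genome-wide value.

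**Figure D2:**
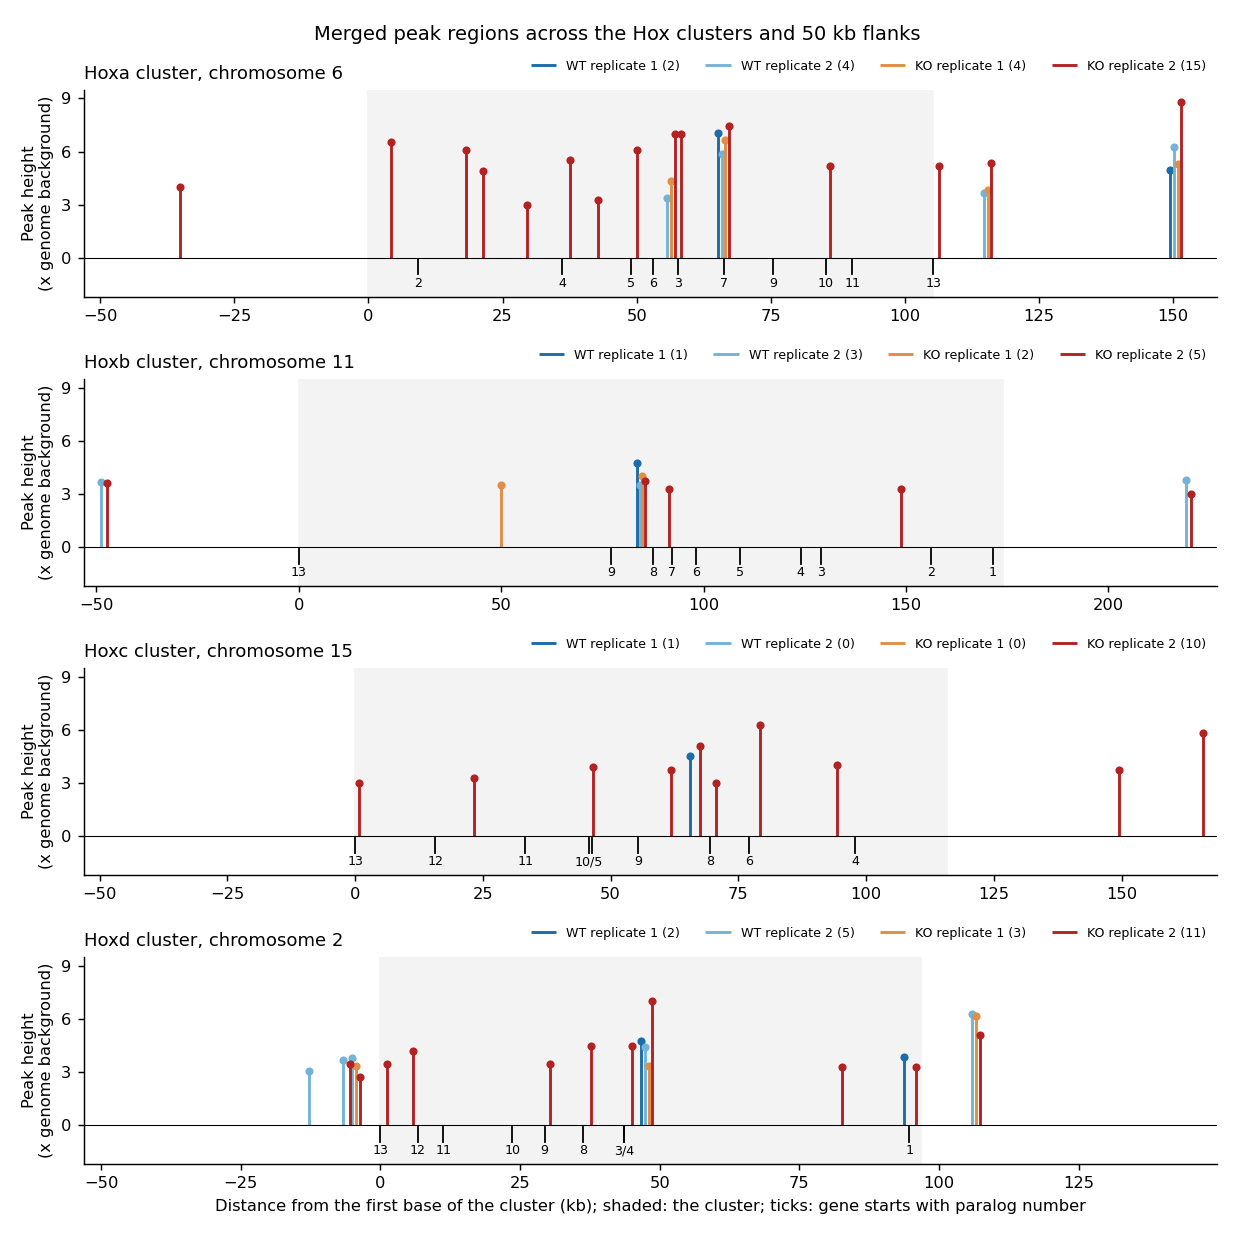
Scaled height (vertical axis, multiples of genome background) of every merged peak region along each cluster and its 50 kb flanks (horizontal axis, kb from the first base of the cluster), with 1 stem per library, drawn side by side. Shading marks the cluster, ticks mark gene starts with their paralog numbers, and counts in the key are regions with a peak. Stems of KO replicate 2 fill the shaded parts of Hoxa, Hoxc and Hoxd, where the other libraries have 2 or fewer each in any cluster.

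Of the 43 regions in the cluster windows 28 were found in KO replicate 2 alone, against 8.22% of all regions, and 4 were found in all libraries, against 39.4%. Regions found in WT replicate 1, WT replicate 2 or KO replicate 1 alone numbered 0, 1 and 1, against 3.09%, 14.2% and 3.47% of all regions. No region was WT-only (1.45% of all regions) or KO-only (1.66%). Inside the clusters 25 of 32 regions were in KO replicate 2 alone, which is 78.1%, and in the flanks 3 of 11, or 27.3%, both above the 8.22% of all regions. Of the 28 regions 20 lay within 1000 bp of an annotated start of a coding or non-coding gene. By annotation 7 of their summits fell in a UTR, 3 in coding exons, 7 in introns, 2 in non-coding exons, 1 in an intron of a non-coding gene and 8 between genes. The same shares over all regions are not given here, so these counts show no preference for starts or genes.

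The local background, which the caller estimates from the surroundings of each peak, was known at the peaks alone. Over all 85418 peaks of KO replicate 2 its median was 1.17 times the genome background, with 47.7% of peaks at 1.2 or more, and at the 31 peaks of the Hox clusters it was 1.26, with 18 of 31 (58.1%) at 1.2 or more. At the 12 peaks of the Hoxa cluster the median was 1.72, the highest value 2.24, and 10 of 12 were at 1.2 or more. The median was 1.23 in Hoxc, 1.03 in Hoxd and 1 in Hoxb. In the other libraries the local background at Hox cluster peaks reached at most 1.01, 1.04 and 1.24. Peaks of KO replicate 2 in the clusters had a median width of 592 bp against 453 bp over all of its peaks.

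Beside the openings of 1 tumor, 8 regions were called in 3 or 4 libraries, and 5 of these lay between genes. Their sequences show the sites that the tumors had in common. For the 7 of these 8 whose summit lies outside a UTR, all but the Hoxa7 peak, the 121 bases around the summit are given on the plus strand of the RefSeq GRCm38.p6 genome, with letters in capitals where they match the CTCF core motif, which contains AGGNGGC, or the shorter form AGGNGGCGC on either strand. The 2 patterns overlap, and the shorter was chosen after the sequences were seen. A site in Hoxc that was called in 2 libraries is shown with them.
Hoxa region 15, chr6:52306066-52306186, plus strand: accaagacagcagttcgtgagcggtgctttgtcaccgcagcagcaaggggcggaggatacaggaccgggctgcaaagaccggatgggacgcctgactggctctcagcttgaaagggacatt
Hoxa region 14, chr6:52270605-52270725, plus strand: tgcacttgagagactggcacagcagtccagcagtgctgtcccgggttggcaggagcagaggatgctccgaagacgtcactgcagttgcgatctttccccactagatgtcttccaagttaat
Hoxa region 9, chr6:52211607-52211727, plus strand: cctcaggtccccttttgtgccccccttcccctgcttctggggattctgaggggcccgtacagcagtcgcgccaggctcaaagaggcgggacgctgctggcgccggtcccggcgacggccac
Hoxb region 3, chr11:96278782-96278902, plus strand: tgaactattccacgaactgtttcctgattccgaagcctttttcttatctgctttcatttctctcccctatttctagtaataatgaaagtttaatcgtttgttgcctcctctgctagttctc
Hoxd region 3, chr2:74663617-74663737, plus strand: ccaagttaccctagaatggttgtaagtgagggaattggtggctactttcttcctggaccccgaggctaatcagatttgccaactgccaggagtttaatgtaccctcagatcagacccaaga
Hoxd region 9, chr2:74715913-74716033, plus strand: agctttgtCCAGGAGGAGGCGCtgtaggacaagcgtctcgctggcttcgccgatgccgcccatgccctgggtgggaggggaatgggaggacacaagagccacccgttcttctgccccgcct
Hoxd region 12, chr2:74774547-74774667, plus strand: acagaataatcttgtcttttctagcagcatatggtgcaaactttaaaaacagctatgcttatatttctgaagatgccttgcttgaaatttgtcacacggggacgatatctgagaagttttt
Hoxc region 5, chr15:102987571-102987691, plus strand: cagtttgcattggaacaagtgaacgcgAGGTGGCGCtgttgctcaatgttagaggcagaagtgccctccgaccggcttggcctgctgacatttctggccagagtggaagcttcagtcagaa

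Hoxa region 15, between genes at 7372 bp from the start of Evx1, the homeobox gene that borders the tail end of the cluster, had heights of 22, 43, 32 and 59. Scaled to background these were 4.98, 6.28, 5.31 and 8.79, the last of them the tallest value of any region in the windows. KO was higher by 0.38 on the log2 scale in limma (SE 0.27, adjusted p = 1), and the groups overlapped. Evx1 itself had a promoter peak in KO replicate 2 alone, with a height of 18, and Evx2, its counterpart beside Hoxd13, had none in any library.

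Hoxd region 9 lay over the start of Hoxd3os1, an antisense RNA of the Hoxd3 locus, and had heights of 21, 30, 20 and 47. KO replicate 2 was the highest and KO replicate 1 the lowest, so the spread within the KO group was larger than the difference between groups, 0.17 on the log2 scale (SE 0.27, limma adjusted p = 1). Its summit window holds both CTCF patterns.

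Hoxb region 3, between Hoxb9 and Hoxb8, was the single site in the Hoxb cluster found in all libraries, with heights of 21, 24, 24 and 25. Scaled to background these were 4.76, 3.5, 3.98 and 3.72, so WT replicate 1 was the highest on that scale and the groups overlapped. KO was higher by 0.01 on the log2 scale (SE 0.25, limma adjusted p = 1). The Hoxa7 peak was the other region found in all libraries, with a difference of 0.23 in the same fit of regions (SE 0.26, adjusted p = 1). None of the 4 regions that entered the fit passed an adjusted p of 0.05, and none had an unadjusted p under 0.05. Of 48089 regions tested 0.0395% passed in either direction, 18 with KO higher (0.0374%) and 1 with KO lower (0.00208%), or 16 and 3 with heights centred on the genome background, and 1480 had an unadjusted p under 0.05.

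The 4 regions in 3 libraries all lacked a peak in WT replicate 1, the shallowest. Hoxd region 12, which lies 11627 bp from the Hoxd1 start in the flank, had heights of 43, 37 and 34 in the other 3 libraries, and Hoxa region 9, in an intron of Hoxa3, had 23, 26 and 47. Hoxa region 14 had heights of 25, 23 and 36 beside the tail end of Hoxa, and Hoxd region 3, beside Evx2, had 26, 20 and 18. Hoxc had no region in 3 or 4 libraries. Its one region outside KO replicate 2 was Hoxc region 5, in an intron of Hoxc5, with heights of 20 in WT replicate 1 and 34 in KO replicate 2. Next to the Hoxc6 peak the tallest Hoxc region was Hoxc region 10, in the flank, at a height of 39 in KO replicate 2 alone. By mean scaled height where a peak was called, Hoxb regions 1 and 2 followed Hoxb region 3 (3.61 and 3.49 against 3.99), with 25 and 24 in WT replicate 2 and KO replicate 2 for the first and 21 in KO replicate 1 alone for the other.

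**Figure D3:**
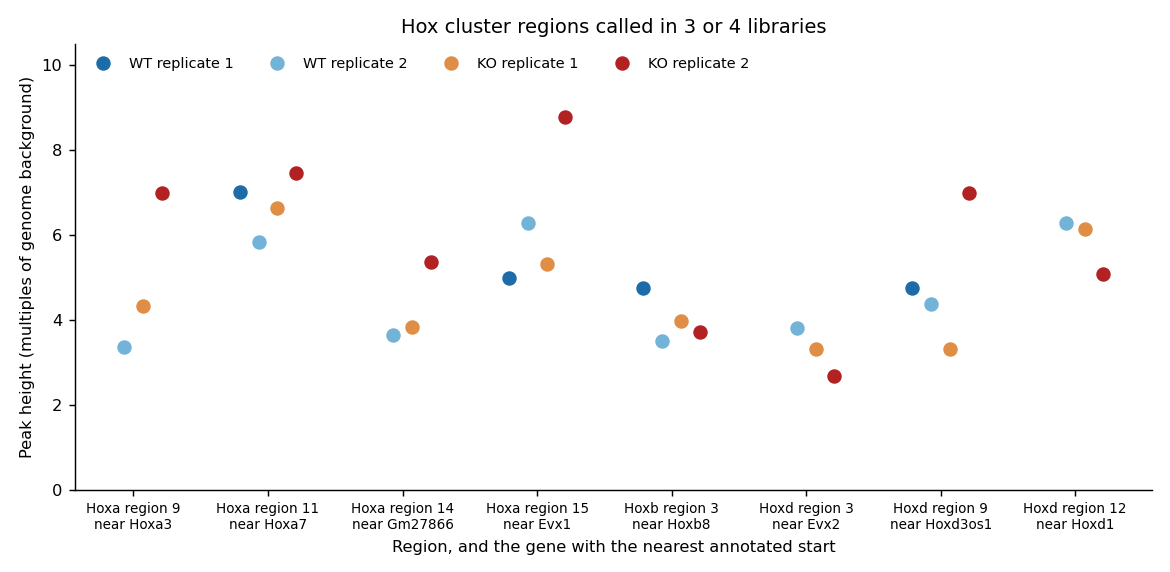
Scaled peak height (vertical axis, multiples of genome background) of the 8 Hox cluster regions called in 3 or 4 libraries (horizontal axis, with the gene of the nearest start), 1 point per library. KO replicate 2 is the highest at the 4 Hoxa sites and at the Hoxd3os1 site, and is not the highest at the Hoxb site or at the Hoxd flank sites near Evx2 and Hoxd1.

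Within 100 bp of summits the CTCF core motif was found in 1 of 43 Hox regions (2.33%) against 3.34% of 122097 regions, and the shorter in 4 (9.3%) against 1.73%. The shorter form was chosen after sequences of these same regions were seen, so its comparison cannot serve as a test. The 4 were Hoxd region 9, Hoxd region 6 at Hoxd9, Hoxc region 3 at Hoxc10 and Hoxc region 5. The HOX-PBX pattern TGATTNAT was found in 1 Hox region, at a Hoxa3 start (2.33% against 2.75%), the HOX pattern TAATTA in 0 (against 4.46%), and the retinoic acid response element, 2 copies of AGGTCA with a gap of 5, in 0 (against 0.00491%). All were searched on both strands.

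In the 1000 bp around the 83 distinct Hox starts the ratio of observed to expected CpG had a median of 0.626, against 0.425 over all protein-coding starts. The ratio was 0.6 or more at 45 Hox starts (54.2%), against 38.7% of all starts. Of these 2.22% had a peak in all libraries and 40% had one in KO replicate 2 alone, against 95.5% and 0.636% of the 36151 protein-coding starts with such a ratio. Among Hox starts the median ratio was 0.686 at the 30 with a peak in KO replicate 2 and 0.59 at the 53 with none in any library, and the values overlapped, from 0.189 to 1 and from 0.0498 to 0.916. Starts of 1 gene share sequence and peaks, so these are descriptions. Hoxb had 9 of 21 starts (42.9%) at 0.6 or more and no peak at any of them. Hoxc had fewer, 5 of 15 (33.3%), and yet 53.3% of its starts were open in KO replicate 2 alone, so the order of the clusters by CpG ratio was not their order by openings.

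**Figure D4:**
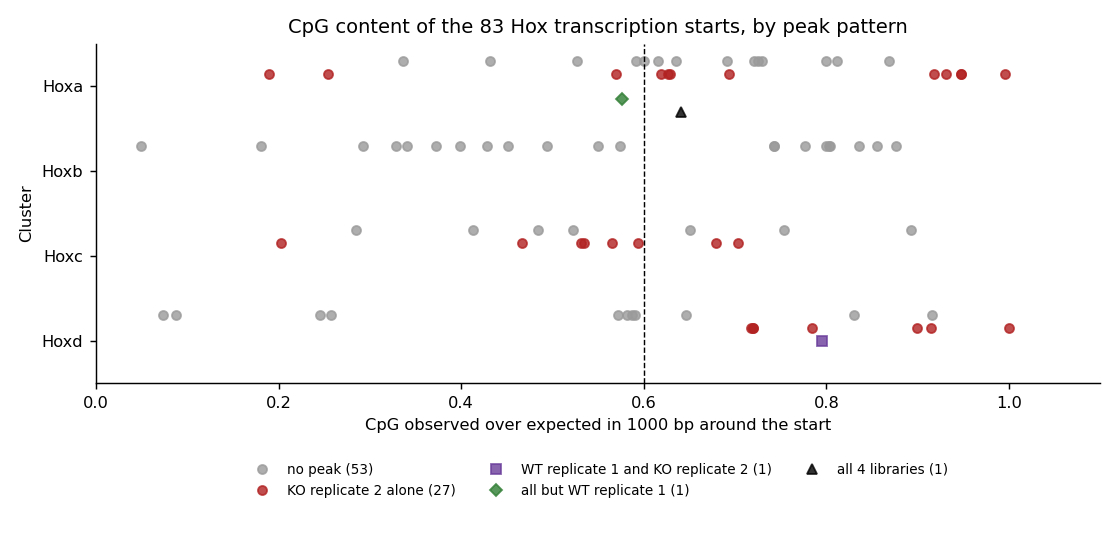
Ratio of observed to expected CpG (horizontal axis) of the 83 Hox starts by cluster (vertical axis), with colour and symbol for the libraries that had a peak and a dashed line at 0.6. Starts opened in KO replicate 2 alone (27) span 0.189 to 1 and overlap with the 53 closed starts, which include every Hoxb start.

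Of 58 non-coding genes of the cluster windows 46 had no promoter peak in any library, which is near the share of all 33499 non-coding genes without one, 79.4%. In KO replicate 2 alone 10 of the 58 had a peak, against 1.27% of all non-coding genes, and several of these share a peak with a Hox gene. Hoxd3os1 was the one found in all libraries, against 12.6%. Among the 10 genes of KO replicate 2 was Hoxaas3, antisense to the Hoxa3 to Hoxa6 part of the cluster, with a height of 33. Haglr, which starts beside Hoxd1, shared the peak in WT replicate 1 and KO replicate 2 (17 and 22). Of 7 miRNA genes Mir615, inside Hoxc5, was open in KO replicate 2 alone, through the Hoxc5 peak with a height of 27, and the other 6 had no peak, among them the miRNA genes of the miR-10 and miR-196 families that are spread over the clusters.

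Genes that act with or on Hox genes were open throughout. All 9 Hox cofactors of the Pbx, Meis and Pknox families, which bind DNA together with HOX proteins, were open in every library, as were all 18 Polycomb genes, which keep Hox clusters repressed, and all 8 genes of genome folding such as Ctcf. Of all protein-coding genes 62.3% were open in every library. Of 11 Trithorax and MLL genes, which keep Hox clusters active, 10 were open in every library and Kdm6b, a demethylase of the Polycomb mark, was open in none. None of the members of these lists that entered limma passed in either direction, with list medians of 0.0439, 0.0426, 0.0203 and -0.06 on the log2 scale for cofactors, Polycomb, folding and Trithorax genes. Of all promoters tested 0.0146% passed.

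Upstream signals of the clusters were more mixed. The retinoic acid pathway was open at 7, 12, 10 and 12 of 14 promoters, and of the upstream axial factors 3, 4, 2 and 3 of 7. Over all protein-coding genes the shares were 63.9%, 66.2%, 65.1% and 66.9%. Cdx1, Cdx2 and Cdx4, which open posterior Hox genes, were closed in every library. Gbx2, a hindbrain border factor, was open in WT replicate 1, WT replicate 2 and KO replicate 2 with heights of 18, 19 and 41. The retinoic acid enzyme genes Aldh1a1, Aldh1a3 and Cyp26a1 were open in all libraries but WT replicate 1. Where called, their scaled heights ran from 2.82 to 4.62. The lowest scaled height called in WT replicate 1, the shallowest library, was 2.94, so its lower count for this pathway concerns peaks near the floor. No member of either list passed limma, against 0.0146% of all promoters tested, and in neither did KO replicate 2 have the highest count alone.

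Among other regional factors, midbrain and isthmus genes were open at 3, 2, 2 and 5 of 6 promoters. For this list and those below, the shares over all protein-coding genes were 63.9%, 66.2%, 65.1% and 66.9%. Lmx1b and Pax2, both of the midbrain and hindbrain border, were open in KO replicate 2 alone (1.64% of all genes) with heights of 31 and 20. En2, of the same border, was open in all libraries with heights of 24, 24, 23 and 74, KO replicate 2 the highest, and did not pass limma. Forebrain factors were open at 11, 10, 10 and 11 of 12 promoters, with Nkx2-1 open in KO replicate 2 alone at a height of 18 and Otx2 in WT replicate 1 alone at 16. The ParaHox gene Gsx1 was open in both KO tumors with heights of 22 and 42 and in neither WT tumor (0.282% of all genes), and the other 2 ParaHox genes were closed. Markers of endothelial cells were open at 1, 3, 1 and 2 of 6 promoters, of microglia and macrophages at 0, 2, 2 and 1 of 6, of neurons at 5, 4, 5 and 4 of 5, and of neural crest and mural cells at 2, 4, 3 and 2 of 5. In none of these 4 marker lists did KO replicate 2 have the highest count alone, which speaks of counts and not of heights. What else sets that tumor apart was not tested.

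**Figure D5:**
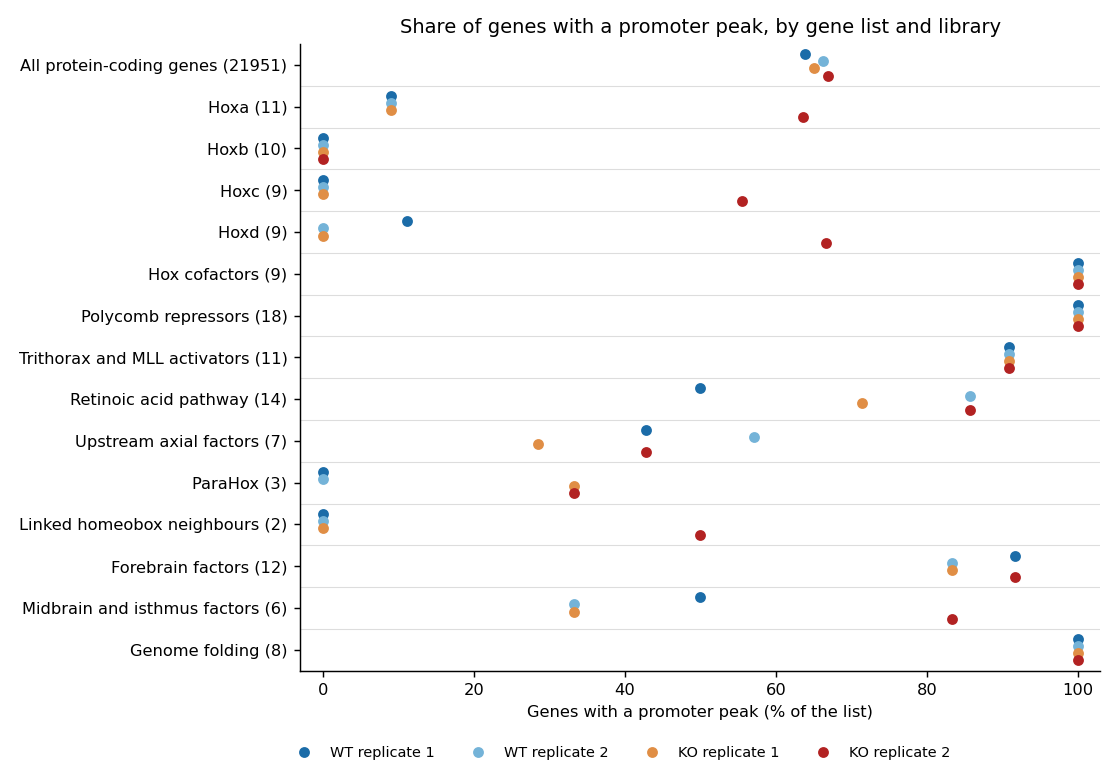
Share of genes with a promoter peak (horizontal axis, % of the list) for all protein-coding genes, the 4 Hox clusters and the lists of related genes (vertical axis, number of genes in brackets), 1 point per library. Hoxa, Hoxc and Hoxd in KO replicate 2 lie near the share of all genes while the other libraries lie near 0, and Hox cofactors, Polycomb repressors and genome folding lie at 100% in every library.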

How the data were processed

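The members, gene lists and motifs were chosen with earlier results of these data known. Groups and replicate numbers came from the sample titles, which tie no WT tumor to a KO tumor. The deposited list of KO replicate 2 is named on another pattern than the other 3 lists, and its group was taken from its title. The sources used here do not say whether it was prepared with them. The labels speak of tumor tissue, while the study's methods speak of freshly isolated tumor cells and its results of cells grown from the tumors as spheres. These sources do not settle which was used.

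The authors called peaks per library. The submitters' notes name MACS2, HOMER and mm10, whereas the study's methods name Bowtie2 and Genrich, and the deposited columns follow MACS2. Deposited values per peak are a ratio, which is the fold over the local background, a score, the −log10 p-value and the −log10 q-value. The files give no read counts, so depth is known only as the background. Heights were recovered from the deposited fold, (height + 1)/(background + 1), and the −log10 p, a Poisson tail. All of 331481 peaks matched a whole height within 0.001. The lowest background of a library was taken as its genome background.

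Peaks were merged where they shared 1 bp. Starts were the 93472 distinct starts of protein-coding genes in GENCODE M21, of any transcript. limma 3.58.1 (R 4.3.3), with a mean-variance trend and Benjamini-Hochberg adjustment, compared log2 heights, centred on the library median, where all 4 libraries had a peak. A feature that lacks a peak in any library cannot enter, so limma does not see a lost or gained peak. Each value of a gene is its tallest promoter peak. Functions were tested on simulated data.

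Values in every library are given for genes open in 1 to 3 libraries, genes of related lists that passed limma or were open in 1 to 3 libraries, up to 4 per list, and regions found in all libraries. The 3 tallest regions per cluster, which the naming rule also calls for, are in the text where they were shared or lie at a named promoter. Alternatives changed the peak threshold, the number of peaks, promoter width and starts, the flanks, the centring, the trend and the libraries used. The starts of the GENCODE basic set and the counts for KO replicate 2 alone were added after seeing the data. One Hox gene is counted in the totals and not reported by itself here.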

Additional observations from a re-analysis of the deposited data

How the results depend on the processing

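With 2 tumors per group and peak lists that hold no value where no peak was called, a missing peak is not a measured 0, and whether the KO replicate 2 pattern returns in another Esm1 KO tumor was not tested. The count of 16 Hox genes open in KO replicate 2 alone stayed between 12 and 19 under every alternative run, and 12 to 15 of the same genes were held by the thresholds, widths and starts other than the reported ones. No Hox gene was WT-only under any alternative, and no Hox promoter or region passed limma under any. The 28 regions in KO replicate 2 alone became 16 at the stricter −log10 q of 5 and 18 where the lists were trimmed to equal numbers of peaks, and ranged from 28 to 31 with a library left out. With starts of principal transcripts or of the basic set the number of Hox genes open in all libraries was 0, since Hoxa7 left, and no Hox promoter could then enter limma.

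Leaving out 1 library, KO-only Hox genes ranged from 0 to 16 and KO-only regions from 0 to 28, with 16 and 28 without KO replicate 1, which leaves KO replicate 2 as the KO group. KO-only regions were 1 at that q and 2 for lists of equal length. Regions in all libraries ranged from 4 to 8, with 8 without WT replicate 1, and were 2 with equal numbers of peaks, and WT-only regions ranged from 0 to 1. The Hoxa7 difference ranged from 0.18 to 0.29 with a library left out. It was 0.13 with centring on the genome background, which shifted the median of all promoters to -0.11, and the median of Hoxa7 and Hoxd1 was 0.14 where 2 libraries with a peak sufficed.

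Over all promoters the 2 calls became 10 with centring on the genome background, 0 without the trend, 0 with summed heights, 5 where 2 libraries sufficed, and 4 each with a −log10 q of at least 5, promoters of 500 bp and principal starts. They ranged from 1 to 171 with a library left out, with 171 without KO replicate 1. The 19 calls over all regions became 41 with summed heights, 117 where 2 libraries sufficed and 10 with a −log10 q of at least 5, and ranged from 7 to 70. The causes were not tested.

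Tumors of the 2 groups share a replicate number and nothing more. Differences between replicate 1 and 2 correlated between WT and KO by -0.21 over promoters and -0.34 over regions. With the replicate block 10 promoters and 10 regions passed, no Hox promoter or region among them, and the Hoxa7 difference stayed at 0.24.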
